A study of Mus musculus with 16 samples.

Results

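Heme-albumin at 200 µM raised 9 genes in mouse stem cell derived macrophages that lipopolysaccharide (LPS) lowered: Slc22a23, Abca8b, Sort1, Cdhr3, Itga8, Fcrl1, Cbr3, Smyd4 and Spry3. They were selected on exactly these measured differences against the untreated control. Genes of iron handling and cholesterol synthesis that did the same were left out, and some others, such as Gipc2 and Spns2, are not among the 9 either. The changes of the 9 at 200 µM and after LPS are therefore a description without a test. The changes at 50 µM of heme-albumin were no criterion of the choice. The 4 arrays at 50 µM still enter the estimate of spread that all groups share in the fit, and the filter on dim probes. The 9 genes have 10 probes on the array, 2 of them for Sort1, and all 9 genes were among the 12759 tested. They are 9 of the 20 genes that were at least 2-fold higher at 200 µM and at least 2-fold lower after LPS, each with an adjusted p under 0.05.

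The study hybridised RNA of these macrophages to 16 two-colour Agilent arrays, 4 independent biological replicates (a to d) in each of 4 groups. The sample titles give a letter the same tag in every group, and the main fit did not pair arrays by letter. The groups were untreated cells at 0 h, cells given 50 µM or 200 µM heme-albumin for 8 h, and cells given 10 ng/mL LPS for 8 h. Every array carried its sample in red and an untreated 0 h reference RNA in green, and the control arrays carried untreated RNA in both colours. No group in the labels is untreated at 8 h or given albumin without heme, so the effects of treatment, time and albumin cannot be told apart. The labels name no strain and do not say from which stem cells the macrophages were grown. A level is given here as the log2 ratio of sample over reference, where 0 is the level of the reference, and a change as the difference of mean log2 ratios from the control ± the standard error (SE) of the limma fit. In such bulk samples, fewer cells of a type and less RNA per cell cannot be told apart.

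Hemoglobin carries its iron in heme, which macrophages take up and break down when red cells are destroyed. Its breakdown releases iron, and heme and oxidants activate NRF2, a transcription factor that raises detoxifying and antioxidant enzymes through the antioxidant response element (ARE). LPS, a component of the outer membrane of Gram-negative bacteria, is sensed by a Toll-like receptor and turns on inflammatory genes through NF-kB and AP-1 while many genes of resting macrophages are turned down. The 9 genes belong to different families: 2 membrane transporters, a sorting receptor, 2 adhesion proteins, an immunoglobulin-like receptor, 2 enzymes and an inhibitor of growth factor signalling.

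Because the genes moved together, their promoters were read for the letters of the ARE core (TGACNNNGC) and of the AP-1 site (TGANTCA) on both strands, in the 250 bases before and 50 bases from the start. RefSeq promoters of build GRCm38.p6 matched 7 of the 9 genes, and Sort1 and Spry3 had no entry. Of the 7, Fcrl1 held 1 AP-1 match, which begins 140 bases before the start (position -140), and Abca8b held 1 ARE core match on the minus strand, 12 bases into the gene. The other 5 held neither. Among 32851 promoters of the same length, 12.4% held the ARE core and 7.81% the AP-1 letters, and although 1 stretch can hold both sets of letters, the 2 matches here lie in different genes. The promoters shown, with matches in capitals, are those of the genes with a match, that of Slc22a23, whose ratio at 200 µM was the highest but came from a dim probe, and that of Cbr3, whose enzyme class is known for ARE control. A match is no evidence of binding, and its absence concerns these letters and this window only.
Fcrl1, GRCm38.p6 chr3:87376137-87376436, plus strand: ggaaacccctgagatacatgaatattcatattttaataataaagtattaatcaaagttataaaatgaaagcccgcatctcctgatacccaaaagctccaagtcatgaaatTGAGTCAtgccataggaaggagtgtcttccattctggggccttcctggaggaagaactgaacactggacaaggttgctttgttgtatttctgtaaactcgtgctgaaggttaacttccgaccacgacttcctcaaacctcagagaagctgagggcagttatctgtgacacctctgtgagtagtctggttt
Abca8b, GRCm38.p6 chr11:109995796-109996095, minus strand: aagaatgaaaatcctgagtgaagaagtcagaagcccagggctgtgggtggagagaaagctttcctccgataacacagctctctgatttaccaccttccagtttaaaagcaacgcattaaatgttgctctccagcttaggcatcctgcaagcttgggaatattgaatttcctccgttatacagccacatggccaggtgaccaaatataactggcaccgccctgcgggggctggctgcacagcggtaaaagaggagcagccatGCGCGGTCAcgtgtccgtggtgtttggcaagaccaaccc
Slc22a23, GRCm38.p6 chr13:34345169-34345468, minus strand: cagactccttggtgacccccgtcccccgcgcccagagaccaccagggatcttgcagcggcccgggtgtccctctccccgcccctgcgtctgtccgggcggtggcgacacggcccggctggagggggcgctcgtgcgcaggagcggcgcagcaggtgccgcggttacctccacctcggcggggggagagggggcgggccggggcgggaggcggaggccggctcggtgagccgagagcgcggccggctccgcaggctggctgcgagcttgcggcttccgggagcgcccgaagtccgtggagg
Cbr3, GRCm38.p6 chr16:93682969-93683268, plus strand: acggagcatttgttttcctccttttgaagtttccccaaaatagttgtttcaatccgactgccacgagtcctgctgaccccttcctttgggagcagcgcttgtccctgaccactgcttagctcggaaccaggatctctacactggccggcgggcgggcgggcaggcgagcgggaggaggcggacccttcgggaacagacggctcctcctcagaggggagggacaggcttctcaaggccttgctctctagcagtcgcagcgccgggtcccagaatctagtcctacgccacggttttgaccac

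The pattern across groups was the same in outline for all 9 genes: LPS lowest, control next, then 50 µM and 200 µM of heme-albumin. At 200 µM the 9 changes ranged from 1.19 (Smyd4) to 4.64 (Slc22a23) with a median of 1.66, and after LPS from -1.23 (Slc22a23) to -3.58 (Sort1) with a median of -1.57. Over all genes the medians were -0.022 and -0.089. By selection all 9 were called higher at 200 µM, where 2.05% of genes were, and all 9 lower after LPS, where 16.7% were. At 50 µM, 3 of the 9 were called higher (Slc22a23, Abca8b and Sort1) against 0.29% of all genes, and the median change was 0.78 against -0.012 over all genes. Of these, Slc22a23 passed the filter on dim probes only through the heme-albumin groups, so its call is a description. The 4 arrays at 50 µM lay above the 4 control arrays for all 9 genes, but these control arrays took part in the selection. The share of all genes with such a separation was not counted. With normexp background correction some changes at 200 µM were over 1.5 times smaller on the log2 scale: 1.17 for Slc22a23, 1.51 for Abca8b, 1.08 for Itga8 and 1.07 for Fcrl1, all 4 still called, and 0.39 for Cdhr3, 0.22 for Spry3 and 0.73 for Smyd4, no longer called.

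**Figure D1:**
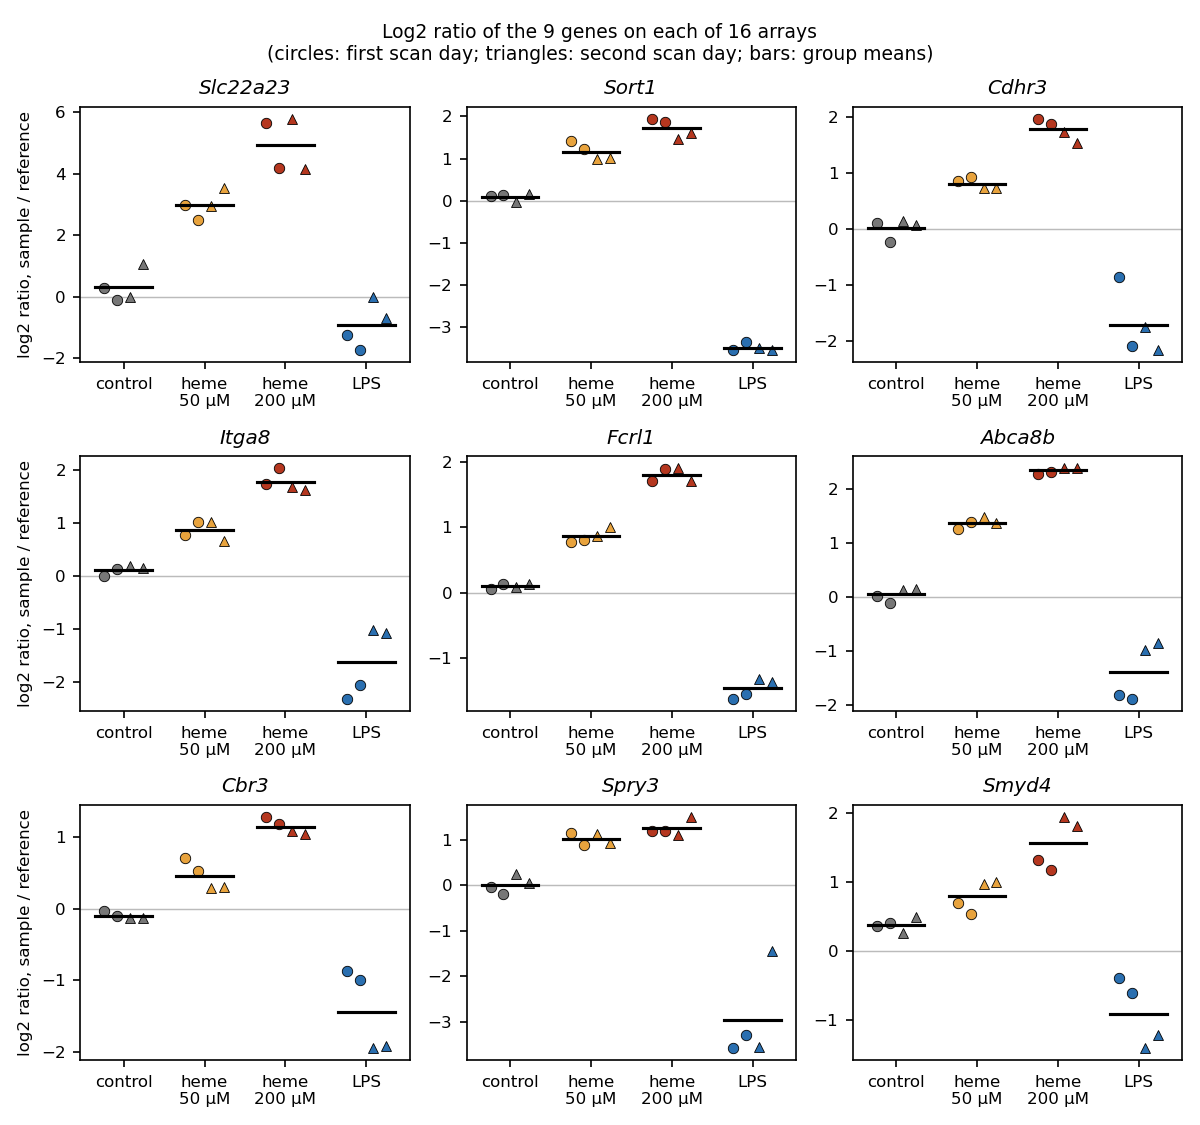
Log2 ratio of sample over reference (vertical axis) for each of the 9 genes on each of the 16 arrays, by group (horizontal axis), with circles for the first scan day, triangles for the second and bars for group means. Both heme-albumin groups lie above the control in each panel, and the LPS arrays lie below it, except that for Slc22a23 they overlap the control.

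Since the 50 µM comparison shares its control arrays with the selection, the 50 µM arrays were also fitted alone against the green reference that each of them carried. All 4 arrays were above the reference for each of the 9 genes, though the share of all genes that do so was not counted. Adjusted p-values from limma ran from 0.00085 (Abca8b) to 0.015 (Cbr3). For Slc22a23 that reference was itself well above background on 1 of these 4 arrays, so its ratio, p and call against the reference rest on a denominator near background. That gene also passed the filter on dim probes only through the heme-albumin groups. At an adjusted p under 0.05 this fit found 19.5% of all genes higher. At 2-fold it called 4 of the 9 (Slc22a23, Abca8b, Sort1 and Spry3), against 0.588% of all genes. For Smyd4 a ratio of 0 is a low baseline, since its control arrays, untreated in both colours, also lay above it, between 0.26 and 0.49. This fit does not remove a bias between the dyes at single genes.

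Slc22a23 encodes a member of the SLC22 family of organic ion transporters whose substrates are not established. Its log2 ratios were 0.28, -0.12, -0.019 and 1.07 in control replicates a to d, 2.98, 2.49, 2.94 and 3.54 at 50 µM, 5.66, 4.18, 5.79 and 4.14 at 200 µM, and -1.24, -1.75, 0 and -0.71 after LPS. The heme-albumin groups were separate from the control and from each other, whereas LPS and control overlapped. The probe passed the filter on dim probes only through the heme-albumin groups, so its p and call at 50 µM are a description and no independent test. The measured change was 2.69 ± 0.45 at 50 µM (adjusted p = 0.0026 in limma) and 4.64 ± 0.45 at 200 µM, and the 2 doses differed by 1.95 ± 0.45. These sizes have no firm denominator, because the green reference was well above background on 4 of the 16 arrays, 1 in each group. In red the probe was dim without heme: its red signal was 6.98 to 22.1 units in control, well above background on 2 of 4 arrays, and 226 to 508 units at 200 µM. After LPS it was not well above background on any of the 4 arrays, so the measured change of -1.23 supports only a bound of at least 1.06-fold lower. A bound sets the brighter group's mean against the lowest signal well above background on each of the dim group's arrays, or the probe's own signal if higher. Such bounds use each colour by itself and are open to dye bias. The size of the heme response depended on how background was removed. With normexp it was 0.82 at 50 µM, not called, and 1.17 at 200 µM, and without background subtraction 0.97 at 50 µM, not called, and 2.47 at 200 µM. After LPS the call was lost under both settings (-0.08 and -0.18) and without control replicate d (-0.97), LPS replicate a (-1.12) or LPS replicate b (-0.95).

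Abca8b encodes an ABC transporter of the A subfamily, whose members move lipids across membranes. Its log2 ratios were 0.029, -0.11, 0.14 and 0.15 in control, 1.26, 1.39, 1.49 and 1.38 at 50 µM, 2.28, 2.32, 2.39 and 2.40 at 200 µM, and -1.80, -1.89, -0.97 and -0.85 after LPS. No pair of groups overlapped, and the 200 µM arrays were the tightest set. The change was 1.33 ± 0.19 at 50 µM (2.51-fold, adjusted p = 0.00078 in limma), 2.30 ± 0.19 at 200 µM and -1.43 ± 0.19 after LPS. Both LPS replicates of the first scan day were lower than both of the second.

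Sort1 encodes sortilin, a receptor that carries proteins from the Golgi to endosomes and lysosomes. In replicates a to d, Sort1 had log2 ratios of 0.11, 0.15, -0.039 and 0.16 in control, 1.43, 1.23, 0.99 and 1.01 at 50 µM, 1.95, 1.87, 1.47 and 1.60 at 200 µM, and -3.55, -3.36, -3.49 and -3.55 after LPS. The groups were all separate, and the LPS arrays lay within 0.2 of one another. The change was 1.07 ± 0.11 at 50 µM (2.10-fold, adjusted p = 6.5e-05 in limma), 1.63 ± 0.11 at 200 µM and -3.58 ± 0.11 after LPS (12.0-fold lower). The second, dimmer probe of Sort1 gave smaller changes of 0.71, 0.92 and -1.12 (SE 0.12 to 0.13), in the same directions, and its 2 heme-albumin doses overlapped. With the mean of both probes the 50 µM change was 0.89, under 2-fold, and without 50 µM replicate a it was 0.98.

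**Figure D2:**
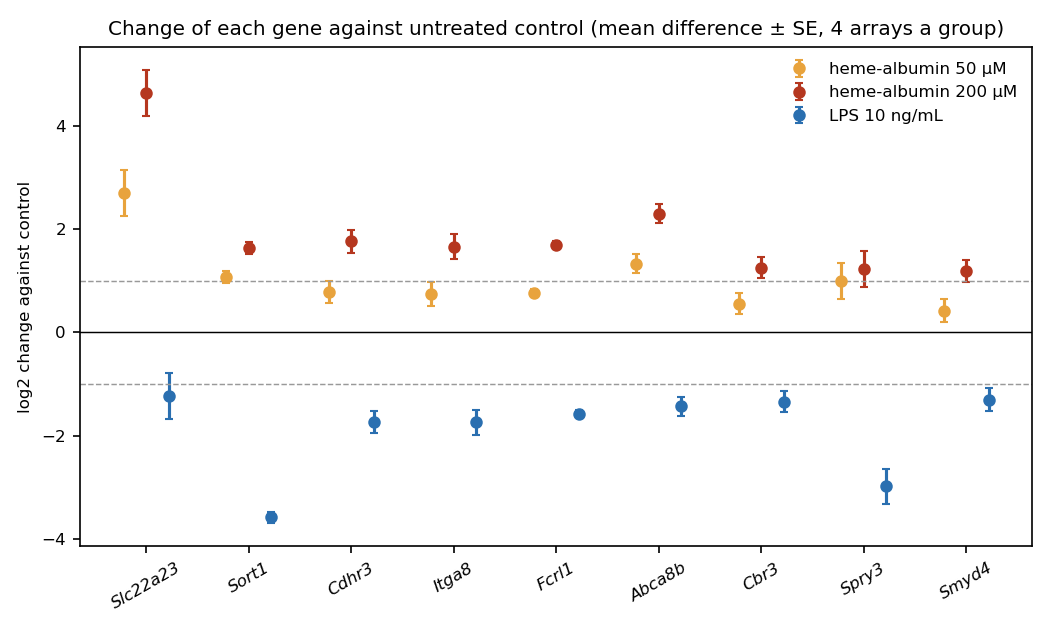
Change of each gene against the untreated control on the log2 scale (vertical axis, mean difference ± SE, 4 arrays a group) at 50 µM and 200 µM heme-albumin and after LPS, with dashed lines at 2-fold. The 200 µM points lie between 1.19 and 4.64 and the LPS points between -1.23 and -3.58.

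Cdhr3 encodes a cadherin-related surface protein known from ciliated airway epithelium, where it serves as the receptor of rhinovirus C. Its log2 ratios were 0.11, -0.22, 0.16 and 0.087 in control, 0.86, 0.94, 0.74 and 0.74 at 50 µM, 1.98, 1.89, 1.74 and 1.55 at 200 µM, and -0.85, -2.08, -1.74 and -2.16 after LPS. The groups were separate, with LPS replicate a nearest to the control. The change was 0.78 ± 0.22 at 50 µM (adjusted p = 0.068 in limma, not called), 1.76 ± 0.22 at 200 µM and -1.74 ± 0.22 after LPS. The signal was low, 30.6 to 58.0 units in control, and after LPS it was well above background on 3 of 4 arrays. With normexp the change after LPS was -0.72 and the call was lost. Of 6 epithelial markers, Epcam, Krt8, Cdh1, Foxj1 and Cldn4 were not well above background on any array, and their summed red signal with Krt18 was 20.5 to 29.7 units in control, 22.5 to 35.0 at 50 µM, 34.1 to 54.2 at 200 µM and 56.3 to 82.2 after LPS. Such sums are not scaled to the array, and LPS arrays were brighter, with an upper quartile of red of 5930 to 7520 units against 2500 to 2830 in control.

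Itga8 encodes integrin alpha 8, which pairs with integrin beta 1 (Itgb1) and binds nephronectin (Npnt), and is known from smooth muscle and mesenchymal cells. The 16 log2 ratios of Itga8 were 0.0064, 0.14, 0.18 and 0.16 in control, 0.77, 1.02, 1.02 and 0.66 at 50 µM, 1.74, 2.05, 1.69 and 1.63 at 200 µM, and -2.33, -2.05, -1.02 and -1.07 after LPS. The groups were separate, and the LPS arrays fell into a lower pair, scanned on the first day, and a higher pair, scanned on the second. The change was 0.75 ± 0.24 at 50 µM (adjusted p = 0.13 in limma, not called), 1.66 ± 0.24 at 200 µM and -1.74 ± 0.24 after LPS. Its partner Itgb1 changed by -0.15, -0.18 and 0.16, none of them called, and Npnt was not well above background on any array. Of the 7 fibroblast and smooth muscle markers on the array, 4 could be tested: Acta2 and Pdgfrb were called higher at 200 µM (1.21 and 1.29), Pdgfrb and Dcn were called higher after LPS (3.40 and 5.01), and Col1a2 was not called. Dcn passed the filter on dim probes only through the LPS group, so its call is a description. Pdgfra was above background on no array. The summed red signal of the 7 markers, not scaled for the brighter LPS arrays, was 139 to 169 units in control, 213 to 481 at 50 µM, 395 to 561 at 200 µM and 859 to 1280 after LPS. Its part in the Itga8 result was not tested.

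Fcrl1 encodes an Fc receptor-like protein known as a B cell surface receptor. Its log2 ratios were 0.0595, 0.14, 0.091 and 0.14 in control, 0.78, 0.80, 0.86 and 1.0 at 50 µM, 1.71, 1.89, 1.91 and 1.70 at 200 µM, and -1.63, -1.54, -1.32 and -1.36 after LPS. The groups were separate and the standard error was the smallest of the 9 genes. The 50 µM change of 0.76 ± 0.076 had an adjusted p of 4.7e-05 in limma but was under 2-fold, and so was not called. The change was 1.70 ± 0.076 at 200 µM and -1.57 ± 0.076 after LPS. The B cell markers Cd79a, Ms4a1 and Ebf1 were not well above background on any of the 16 arrays. Of the 8 B cell markers only Cd79b was above background on every array, and it changed by 0.14, 0.18 and -2.13, the last a call. Cr2, the other B cell marker that could be tested, changed by -0.74, -0.50 and -0.90, none of them called. The summed red signal of the list, mostly Cd79b and not scaled for the brighter LPS arrays, was 392 to 638 units in control, 464 to 754 at 50 µM, 559 to 823 at 200 µM and 313 to 694 after LPS. Its part in the Fcrl1 result was not tested. All 11 macrophage markers were well above background on all 16 arrays.

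Cbr3 encodes carbonyl reductase 3, which reduces carbonyl compounds with NADPH. For Cbr3 the log2 ratios were -0.03, -0.11, -0.12 and -0.12 in control, 0.71, 0.54, 0.30 and 0.30 at 50 µM, 1.29, 1.18, 1.09 and 1.04 at 200 µM, and -0.87, -0.996, -1.95 and -1.92 after LPS. The groups were separate, and here the LPS arrays of the second scan day were the lower pair. The change was 0.56 ± 0.20 at 50 µM (adjusted p = 0.21 in limma, not called), 1.25 ± 0.20 at 200 µM and -1.34 ± 0.20 after LPS. Its probe was bright in every group, with 8380 to 10700 units of red signal in control and 21900 to 27700 at 200 µM. The neighbouring gene Cbr1, a reductase of the same family, changed by -0.027, -0.029 and -0.97, none of them called. Its fall after LPS had an adjusted p of 1.4e-09 in limma and was just under 2-fold.

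Smyd4 encodes a SET and MYND domain protein of a methyltransferase family. Its log2 ratios were 0.36, 0.40, 0.26 and 0.49 in control, 0.69, 0.54, 0.97 and 0.996 at 50 µM, 1.32, 1.18, 1.95 and 1.82 at 200 µM, and -0.39, -0.62, -1.42 and -1.23 after LPS. The groups were separate, but the highest control array and the lowest 50 µM array were close. The change was 0.42 ± 0.22 at 50 µM (adjusted p = 0.43 in limma, not called), 1.19 ± 0.22 at 200 µM and -1.30 ± 0.22 after LPS. It was the smallest heme response of the 9 genes at both doses.

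Spry3 encodes a Sprouty protein, an inhibitor of signalling from receptor tyrosine kinases. The arrays gave Spry3 log2 ratios of -0.047, -0.18, 0.24 and 0.059 in control, 1.14, 0.88, 1.12 and 0.92 at 50 µM, 1.19, 1.2, 1.11 and 1.51 at 200 µM, and -3.58, -3.28, -3.55 and -1.45 after LPS. The 50 µM and 200 µM arrays overlapped, the only such case among the 9 genes on the probes that stand for them, and LPS replicate d stood apart from the other 3. The change was 0.998 ± 0.35 at 50 µM (adjusted p = 0.17 in limma, not called), 1.23 ± 0.35 at 200 µM and -2.98 ± 0.35 after LPS. After LPS the probe was not well above background on any of 4 arrays (mean log2 ratio -2.97 against 0.018 in control), which gives a bound of at least 3.44-fold lower. At 200 µM the call rested on few arrays: without control replicate b or without 200 µM replicate d it was lost, at changes of 1.17 and 1.15.

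Between the 2 doses of heme-albumin, the level was higher at 200 µM than at 50 µM by a median of 0.91 over the 9 genes, from 0.24 ± 0.35 for Spry3 to 1.95 ± 0.45 for Slc22a23. Cdhr3 (0.97 ± 0.22), Abca8b (0.97 ± 0.19), Fcrl1 (0.94 ± 0.076) and Itga8 (0.91 ± 0.24) lay close together, and Sort1 was lower, at 0.56 ± 0.11. These differences share the 200 µM arrays with the selection and are given without a test.

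**Figure D3:**
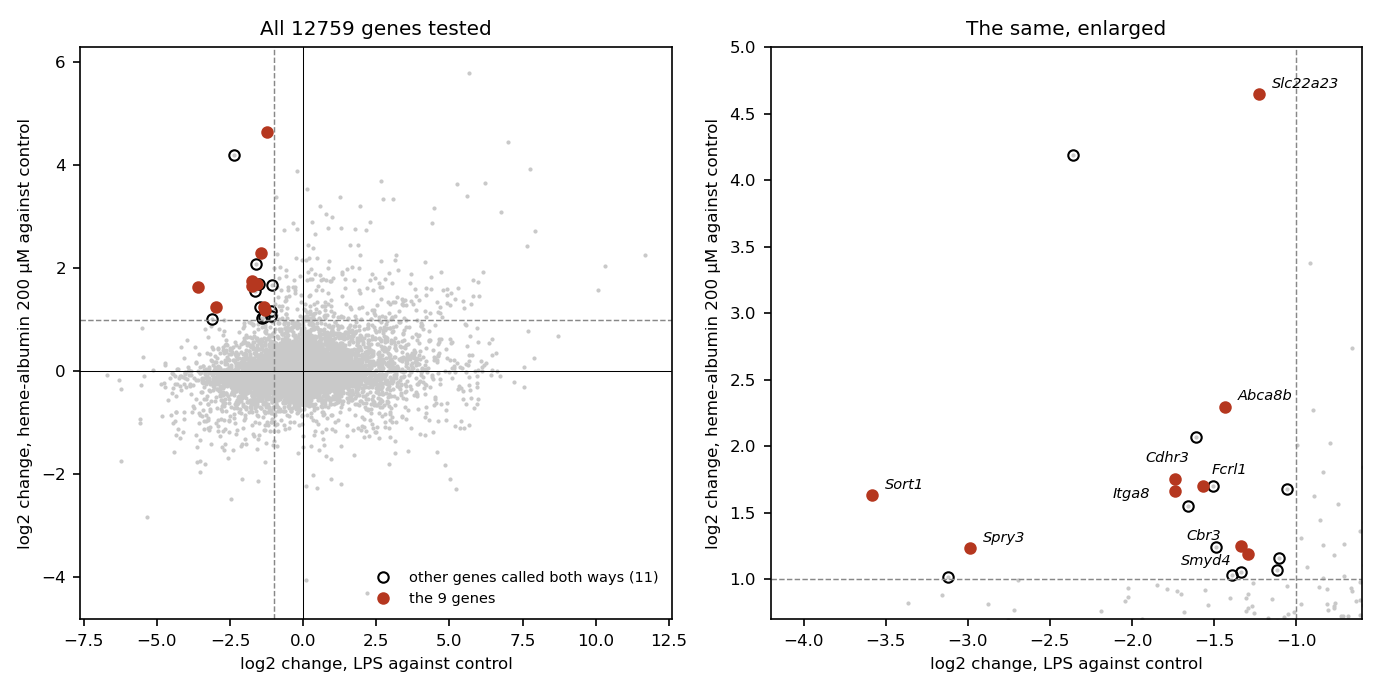
Change at 200 µM heme-albumin (vertical axis) against change after LPS (horizontal axis), both on the log2 scale against the same control arrays, for all 12759 genes tested and enlarged on the right, with dashed lines at 2-fold. The 9 genes (red) and 11 others called both ways (open circles) lie in the upper left.

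Of the 261 genes higher at 200 µM, 20 were lower after LPS, 129 were higher and 112 were not called. Both changes use the same control arrays. The 11 others among the 20 include Slc40a1, the iron exporter, Sqle of cholesterol synthesis, and Lrp8, a lipoprotein receptor. Just inside the 2-fold limit at 200 µM lay Pgap4 (1.02), Gzmm (1.03) and Spns2 (1.06). Just outside lay Kcne3, with 0.99 at 200 µM and -2.69 after LPS, Rnf128, with 0.97 and -1.26, and Slc22a4, with 1.09 and -0.94. Across the 16 arrays, each of the 9 genes followed the mean of the other 8 with Pearson's r from 0.91 (Slc22a23) to 0.994 (Fcrl1), which the selection on 2 of the 4 groups makes large. Among 3908 genes compared, those whose log2 ratios closely resembled the mean of the 9 included Trpv4 (r = 0.982), 6720489N17Rik (0.982), Bspry (0.98) and Gipc2 (0.976), over 16 arrays that share the same groups and reference.

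In the family lists of the 9 genes and a list of NRF2 targets, 80 genes were tested beside them. At 50 µM, 7.5% of the 80 were called higher, where 0.29% of all genes were (0.0784% of all genes were called lower). At 200 µM, 21.2% were higher and 5% lower, against 2.05% and 0.98%, and after LPS 18.8% were higher and 13.8% lower, against 14% and 16.7%. Of these calls with heme, 6 of 6 at 50 µM and 15 of 17 at 200 µM were NRF2 targets. None of the 80 was called both higher at 200 µM and lower after LPS, but at an adjusted p under 0.05 in limma and any size of change 13 of the 80 were, against 3.32% of all genes. The 13 were Slc22a4, Slc22a18, Sorl1, Itgb3, Abca7, Akr1b3, Akr1b8, Akr1c13, Nqo1, Gclc, Gstm1, Taldo1 and Tkt.

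Among 8 further SLC22 transporters, Slc22a4, a carnitine and ergothioneine transporter, was called higher at 200 µM (1.09 ± 0.23) and changed by -0.94 ± 0.23 after LPS (adjusted p = 0.0019 in limma, under 2-fold). Slc22a17 (-1.12) and Slc22a18 (-1.29) were called lower after LPS, and Slc22a18 changed by 0.52 ± 0.10 at 200 µM (adjusted p = 0.0019 in limma, under 2-fold). Of 7 other ABCA transporters, Abca1, the cholesterol exporter, was lower at 200 µM (-1.64 ± 0.19), Abca2 (-1.19), Abca5 (-2.91) and Abca9 (-2.76) were lower after LPS, and Abca17 was higher (1.53). Abca8a, the neighbour of Abca8b, was well above background on at most 2 arrays and was not tested. Of 7 sorting receptors and adaptors listed with Sort1, the median changes with heme were -0.0083 at 50 µM and -0.033 at 200 µM. After LPS M6pr, a mannose 6-phosphate receptor, was higher (1.30), and Gga2, an adaptor, lower (-1.67).

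Of 14 other integrin subunits, Itga6 (-1.16), Itga9 (-1.15) and Itgb5 (-1.42) were lower at 200 µM. After LPS Itga5 (2.37), Itgal (2.30) and Itga9 (1.71) were higher, and Itga6 (-2.74), Itgb3 (-2.02) and Itgb5 (-2.11) lower. At 200 µM Itgb3 changed by 0.63 ± 0.14 (adjusted p = 0.0054 in limma, under 2-fold). Itga6 and Itgb5 thus fell in both comparisons, which share the control. Of 3 other cadherins tested, Cdh5 was called, higher after LPS (2.10), and of 3 other Fc receptor-like genes Fcrlb was, also higher after LPS (1.91). Fcrlb and Itga9 were dim, with mean log2 red signals of 4.32 and 4.44. The group through which each passed the filter was not examined. Fcrl5, which lies beside Fcrl1, changed by 0.026, 0.058 and 0.27.

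Cbr3 stood beside 13 other carbonyl and aldo-keto reductases and 18 NRF2 targets. Of the reductases, Akr1b8 was called higher at 200 µM (1.46 ± 0.059) and changed by -0.49 ± 0.059 after LPS (adjusted p = 2e-06 in limma, under 2-fold). Akr7a5 was called lower after LPS (-1.32). Of the NRF2 targets, 6 were called higher at 50 µM, 15 at 200 µM and 5 after LPS. Their median changes were 0.76, 1.78 and 0.33. Hmox1, which opens the heme ring, changed by 2.88, 3.70 and 2.65, Gclm, of glutathione synthesis, by 2.38 at 200 µM and 0.35 after LPS, and Nqo1, a quinone reductase, by 1.44 at 200 µM and -0.85 after LPS. At 200 µM Cbr3 (1.25) lay within the range of these targets, and after LPS (-1.34) it lay below each of the 18, the lowest of which was Nqo1. Cbr3 was selected for being lower after LPS and the targets were not, so the selection favours this rank.

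The 3 tested relatives of Spry3, namely Spry1 (2.75), Spred1 (2.79) and Spred2 (1.05), which inhibit the same signalling, were called higher after LPS, the opposite direction to Spry3. Spry1 was dim, with a mean log2 red signal of 3.24. A probe so dim can pass the filter through the group where it is high, so its call is a description. Spry2, Spry4 and Spred3 did not pass the filter and were not tested. At 200 µM the changes of the 3 tested relatives were 0.39 to 0.48 and not called. Of 4 other SMYD genes, Smyd3 was called, lower after LPS (-1.31).

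**Figure D4:**
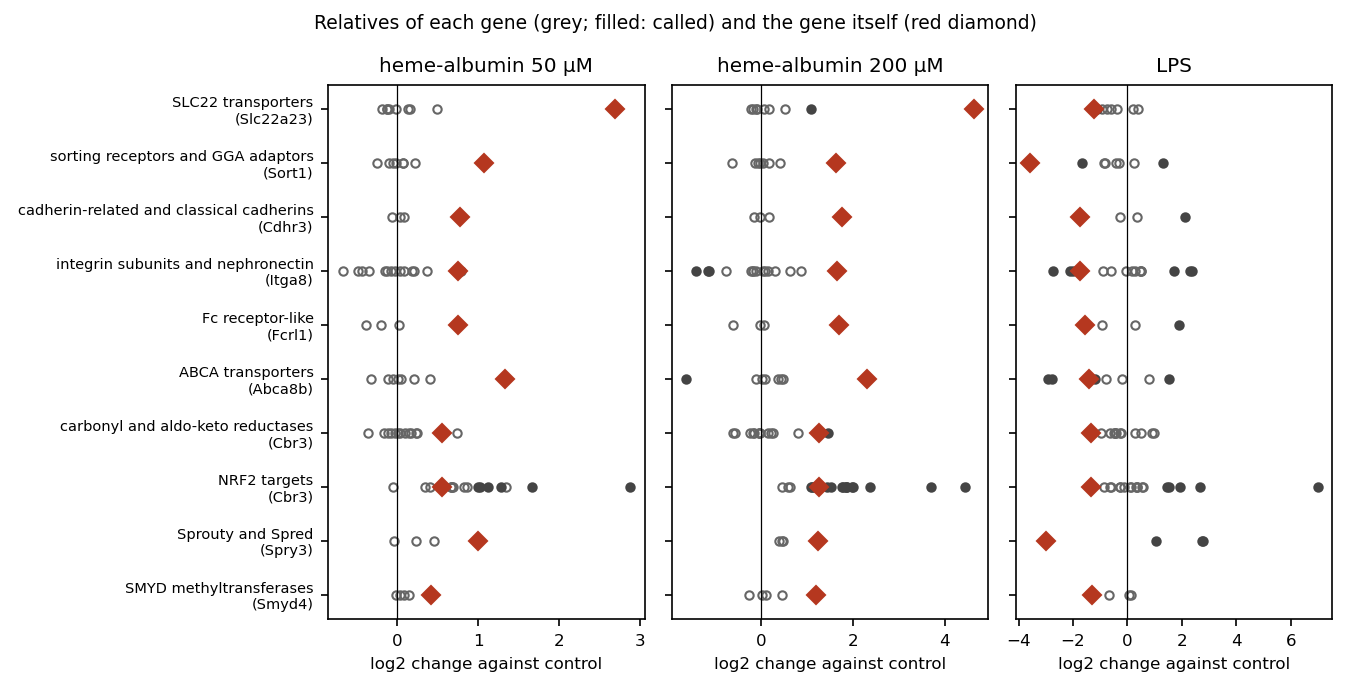
Log2 change against control (horizontal axes) of the genes in each list (rows, grey, filled where called) and of the gene it belongs to (red diamond) at 50 µM, at 200 µM and after LPS. At 200 µM the diamonds lie to the right of every listed relative except among NRF2 targets and, for Cbr3, Akr1b8. After LPS the Spry3 diamond at -2.98 lies opposite its 3 tested relatives, of which Spry1 was dim.

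The LPS changes of 4 genes differed between the scan days, each of which held 2 arrays of every group. The first day held replicates a and b and the second c and d, on other slides. Scan day, replicate and slide thus cannot be told apart. Itga8 changed by -2.26 on the first day and -1.22 on the second (difference 1.04 ± 0.20, adjusted p = 0.0029 in limma), and Abca8b by -1.81 and -1.06 (difference 0.75 ± 0.098, adjusted p = 0.00032 in limma). Cbr3 and Smyd4 went the other way, from -0.87 to -1.81 (difference -0.94 ± 0.096, adjusted p = 7.4e-05 in limma) and from -0.89 to -1.71 (difference -0.82 ± 0.15, adjusted p = 0.0022 in limma). All 9 changes were below 0 on both days, which the selection on these same arrays favours. Such day differences after LPS were common, at 33.6% of all genes, so that 4 of 9 is near the background. The p-values of day differences rest on arrays that the selection used, so they are a description. For heme-albumin at 200 µM the day difference that came nearest to the threshold was that of Smyd4 (0.64 ± 0.15, adjusted p = 0.15 in limma).

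**Figure D5:**
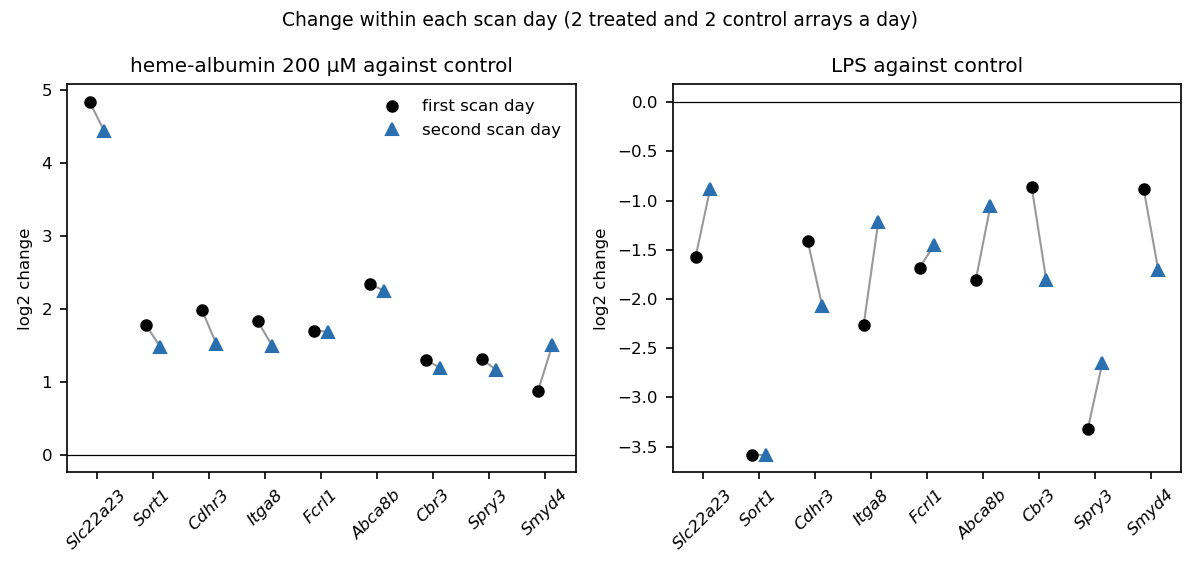
Log2 change against control (vertical axes) of each of the 9 genes (horizontal axis) on the first scan day (circles) and the second (triangles), 2 treated and 2 control arrays a day, at 200 µM heme-albumin (left) and after LPS (right). After LPS Itga8 and Abca8b moved towards 0 from the first day to the second, and Cbr3 and Smyd4 away from it.

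The LPS arrays also differed in overall brightness. The upper quartile of the green reference signal was 5880 to 7580 units on LPS arrays against 2490 to 2830 on control arrays, and that of red followed it (5930 to 7520 against 2500 to 2830). On the LPS arrays the reference signal of the 9 genes was higher by 0.86 to 1.40 on the log2 scale, where the median of all genes was 1.28. The unscaled red signal of Cbr3 and Smyd4 therefore differed little between LPS and control, by 0.038 and -0.079, while their ratios fell. When red alone was scaled to each array's upper quartile, the 9 LPS changes were between -1.2 and -3.61, those at 200 µM between 1.15 and 4.51 and those at 50 µM between 0.41 and 2.32, in the same directions as the ratios. Over the 16 arrays 49.9% to 59.4% of probes were well above background and no spot was saturated. Each group kept 1 place on every slide, so place and group cannot be told apart.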

How the data were processed

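Per the file headers, the deposited log10 ratios (red over green, per spot) and intensity values in both colours came from Agilent Feature Extraction 10.7.3.1, background-subtracted and with linear and lowess dye normalisation. Per the labels, the authors normalised no further and filtered at 2-fold. The value table also deposited equals these ratios. Red is the sample, per the labels.

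Log10 ratios were converted to log2. Control and outlier spots (188 to 690 an array) were left out, and spots of a probe averaged. Probes were named through RefSeq accessions (27234 of 39429). A probe was kept if its red signal was well above background in every replicate of a group, and the brightest stood for its gene, which left 12759 genes. They were fitted with limma 3.58.1 in R 4.3.3 (files read with version 1.17.8 of data.table, plots made with matplotlib 3.10.9), with a mean per group, all 16 arrays and no block, and a median of 14.1 degrees of freedom. P-values were Benjamini-Hochberg adjusted over all genes of a comparison, and calls needed an adjusted p under 0.05 and a 2-fold change. The number of arrays limits the precision, and p-values measure the spread between these samples.

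The 9 genes, the lists, tests and alternatives were chosen with earlier results of these data known. Genes named beyond them are listed relatives that were called, partners and neighbours, the most like genes, some of those called both ways, and those nearest the 2-fold limit. A gene that this rule names is not reported here. The fit was tested on simulated data. Alternatives were normexp (offset 50, on median signals, since mean signals were not used here), no background subtraction, other probe rules, filters and thresholds, scan day or replicate as a block, each scan day alone, and each array left out. The difference between scan days, the brightness of arrays and the count of relatives at any size of change were examined after seeing the data. Replicate letters mark the slides and pair the arrays for both heme-albumin comparisons (correlations of deviations 0.219 to 0.297 at 50 µM and 0.166 to 0.33 at 200 µM), but not clearly for LPS (0.0962 to 0.114).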

Additional observations from a re-analysis of the deposited data

Results flagged for a closer look

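Spry3 on LPS replicate d had a log2 ratio of -1.45, apart from the other 3 LPS arrays at -3.58 to -3.28. It was the only case among 40 sets of 4 arrays examined, and chance alone marks about 1 in 20 such sets. The probe was not well above background in red on any of the 4 LPS arrays.

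The LPS change differed between the scan days for 4 of the 9 genes, as second minus first day: by 1.04 for Itga8, 0.75 for Abca8b, -0.94 for Cbr3 and -0.82 for Smyd4. The same test passed for 33.6% of all genes. For the 9 genes it is a description, since the selection used these arrays. The days also held different replicates and slides, which cannot be told apart from the day.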

How the results depend on the processing

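No direction of the 9 genes reversed under any alternative, and of their changes under alternatives 531 kept their side of the threshold, 26 fell below it and 1 rose above it. With normexp, 19 genes were called at 50 µM (15 higher), 151 at 200 µM (110 higher) and 1390 lower after LPS. Without background subtraction these were 28 (23 higher), 228 (170 higher) and 1408. With the adjusted p alone they were 449 (264 higher), 2909 (1380 higher) and 10059 after LPS in both directions (5655 lower). Leaving out 1 array gave 2 to 3 of the 9 genes called higher at 50 µM and 3 to 4 above the reference. The second scan day alone gave 1 at 50 µM. Above the reference at 50 µM, 2 of the 9 were called with normexp and 2 without background subtraction. With the replicate block 3, 9 and 9 of the 9 genes were called at 50 µM, at 200 µM and after LPS, and 54, 393 and 3922 of all genes, so the pairing changed no call of the 9.

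Calls were lost as follows. At 50 µM, Slc22a23 was lost with normexp (0.82), without background subtraction (0.97) and on the second day (2.72), and Sort1 with the mean of its probes (0.89), on the second day (0.94) and without 50 µM replicate a (0.98). At 200 µM, Cdhr3 (0.39), Spry3 (0.22) and Smyd4 (0.73) were lost with normexp, Spry3 also without background subtraction (0.75) and on the second day (1.16), and Smyd4 on the first (0.87). After LPS, normexp ended the calls of Slc22a23 (-0.08), Cdhr3 (-0.72) and Spry3 (-0.998), and leaving out the subtraction those of Slc22a23 (-0.18), Cdhr3 (-0.64) and Spry3 (-0.96). Slc22a23 was also lost on the second day (-0.88) and without control replicate d (-0.97), LPS replicate a (-1.12) or LPS replicate b (-0.95). Cbr3 (-0.87) and Smyd4 (-0.89) were lost on the first day. The cause was not tested. Dim probes (Slc22a23, Spry3 and Cdhr3) are limited by their signal over background.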

Other observations

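Of 12 tested chromosome neighbours of the 9 genes in the RefSeq gene table (GRCm38.p6), 5 were called after LPS, where 30.7% of all genes were, and 1 at 200 µM, where 3.03% were. They are named after their values were seen. After LPS, Rpa1, beside Smyd4 (-1.48), Cd5l, beside Fcrl1 (-1.29), and Tmlhe, beside Spry3 (-1.11), were lower, and Psma5, beside Sort1 (1.82), and Atxn7l1, beside Cdhr3 (1.62), higher. Serpinf1, beside Smyd4, encodes pigment epithelium-derived factor and was called higher at 200 µM (1.07), with a change of 0.087 after LPS.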
